A study of Caenorhabditis elegans with 12 samples.

Results

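Transcript levels of 10 genes of the AMPK and TOR kinase pathways were examined in whole *C. elegans* worms with and without knockdown of *rpia-1*, whose product, a ribose-5-phosphate isomerase, works in the non-oxidative branch of pentose phosphate metabolism. The genes were taken by name from the TPM values (a read density per transcript length, scaled within each library), where all 10 of the 10 names were found among 46904 genes. They were *par-4*, *aak-1*, *aak-2*, *aakb-1* and *aakb-2* on the AMPK side, and *let-363*, *daf-15*, *rict-1*, *raga-1* and *rsks-1* on the TOR side. RNA was sequenced from 12 libraries in 4 groups of 3, collected independently, each from at least 500 worms. N2 is the wild type, and its groups were fed bacteria with the empty vector (N2 EV) or with *rpia-1* dsRNA from day 0 of adulthood (N2 *rpia-1* (RNAi) Day 0). TU3401 carries the transgene uIs69, made of pCFJ90 (myo-2p::mCherry) together with unc-119p::sid-1, which places the dsRNA channel SID-1 under a pan-neuronal promoter and marks the pharynx with mCherry. Its groups were fed the empty vector (TU3401 EV) or *rpia-1* dsRNA from the embryo on, for whole life (TU3401 *rpia-1* (RNAi) WL). All 4 groups ate *E. coli* HT115 (DE3), and all RNA came from the whole worm, so that neurons made up only a share of each TU3401 sample. The sample labels give day 5 for N2 and day 0 for TU3401, where the description also carries the tag L4, while the methods give day 5 of adulthood for all samples. Strain, onset of the RNAi feeding and labelled age therefore cannot be told apart between the N2 and TU3401 groups.

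AMPK is a kinase of 3 subunits (a catalytic alpha, a scaffolding beta and a nucleotide-sensing gamma subunit) that is activated when cellular energy falls, after phosphorylation by the kinase PAR-4, the worm LKB1. TOR, encoded by *let-363*, works in complexes that differ in a defining partner, the Raptor DAF-15 in TORC1 and the Rictor RICT-1 in TORC2. TORC1 is recruited to the lysosome by Rag GTPases when amino acids are present and promotes translation and growth through the S6 kinase RSKS-1, and in worms reduced TOR or raised AMPK activity is known to extend lifespan and induce autophagy. The values here are mRNA levels only, and these libraries hold nothing on the phosphorylation that sets the activity of these kinases.

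The level of the targeted gene followed the labels in N2, and in TU3401 it was lower on average without passing. In N2, *rpia-1* stood at 128, 115.4 and 120.4 TPM in the EV libraries and at 27.5, 32.8 and 30.2 TPM in the RNAi libraries (log2 difference −1.97, adjusted p = 5.3e-04 from limma). In whole TU3401 worms the EV libraries held 107, 107 and 115.3 TPM and the RNAi libraries 82.01, 88.5 and 106 TPM, a difference that did not pass (−0.26, adjusted p = 1.00 from limma). All 3 RNAi libraries lay below the EV libraries, as they did for 2.03% of the 13921 genes tested. The depth in reads is unknown, since no counts were used. N2 *rpia-1* (RNAi) Day 0 replicate 1 stood apart from the other N2 libraries, with 22388 genes above 0 TPM against 17777 to 19135.

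The transcript levels of tissue markers differed between the strains as well. Markers of body wall muscle (6 genes) summed to 107 to 166 TPM in the 6 N2 libraries and 3704 to 5405 TPM in the 6 TU3401 libraries, those of the intestine (6 genes) to 131 to 205 and 2583 to 3152 TPM, and those of epidermis and cuticle (6 genes) to 25.6 to 59.0 and 1256 to 3117 TPM. Sperm genes (7, with *msp-77* listed at 0 in all 3 N2 RNAi libraries) summed to 1.17 to 3.62 TPM in N2 and 1454 to 2162 TPM in TU3401, and the 6 yolk genes to 1933 to 3300.5 and 8293 to 13889 TPM. The order was the opposite for the 9 germ line genes (8007 to 9610 TPM in N2, 4590.1 to 6411 TPM in TU3401), the 6 eggshell genes (4548 to 5134 and 2328 to 3435 TPM) and the sum of 8 neuron genes (396 to 477 and 252 to 292 TPM). In TU3401 EV against N2 EV, 6 of 6 muscle, 6 of 6 intestine, 5 of 6 epidermis, 7 of 7 sperm and 6 of 6 yolk genes were called higher. Called lower were 8 of 9 germ line and 6 of 6 eggshell genes, and of 7 neuron genes tested 5 were called higher and 1 lower. Beside these, 45.4% of all 13348 genes tested were called higher and 43.4% lower. Only 1 of the 7 sperm, 3 of the 6 epidermis and 5 of the 8 neuron genes averaged 1 TPM or more in N2 EV. Where the others were tested, it was only because of their level in TU3401 EV, so that they had to be higher. The part of these tissues in the differences below was not tested, and in whole worms fewer cells of a type and less RNA per cell cannot be told apart.

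All 10 genes were expressed in every library, and their mean levels in N2 EV spanned 21.4-fold. *raga-1*, the RagA GTPase, was the highest at 139 ± 0.632 TPM (SD, n = 3), followed by *rsks-1* at 117 ± 2.35 TPM and *par-4* at 100.1 ± 7.28 TPM. *rict-1* (69.9 ± 2.61 TPM) and *aakb-2* (63.2 ± 6.16 TPM) came next with overlapping libraries, and so did *aak-1* (51.4 ± 3.75 TPM) and *daf-15* (51.3 ± 1.07 TPM). The TOR kinase itself, *let-363*, stood at 34.0 ± 2.31 TPM, above *aak-2* at 22.2 ± 0.746 TPM and *aakb-1* at 6.53 ± 0.2801 TPM. Every other pair of neighbours in this order was separated in all libraries. Among the 10464 genes that averaged 1 TPM or more in N2 EV, *raga-1* lay at or above 84.4% and *aakb-1* at or above 30.9%. The N2 RNAi libraries kept this order, apart from *aak-1* and *daf-15*, whose libraries overlapped in both groups.

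The order was another one in TU3401. With EV, *rsks-1* led at 95.1 ± 5.57 TPM and *raga-1* was next at 71.2 ± 5.93 TPM, and the span from highest to lowest was 7.56-fold. *rict-1*, the fourth of the 10 genes in N2, was the eighth in TU3401 EV at 17.5 ± 1.81 TPM, below *let-363* in every library and overlapping with *aak-2*. The spread among replicates was also wider, with a median coefficient of variation over the 10 genes of 10.5% in TU3401 EV against 4.01% in N2 EV. TU3401 EV replicate 3 was the lowest of the 6 TU3401 libraries for 8 of the 10 genes. In the same library the germ line markers were the lowest (4590.1 TPM) and the muscle markers the highest (5405 TPM) of the 6, and their part in the low member values was not tested.

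**Figure D1:**
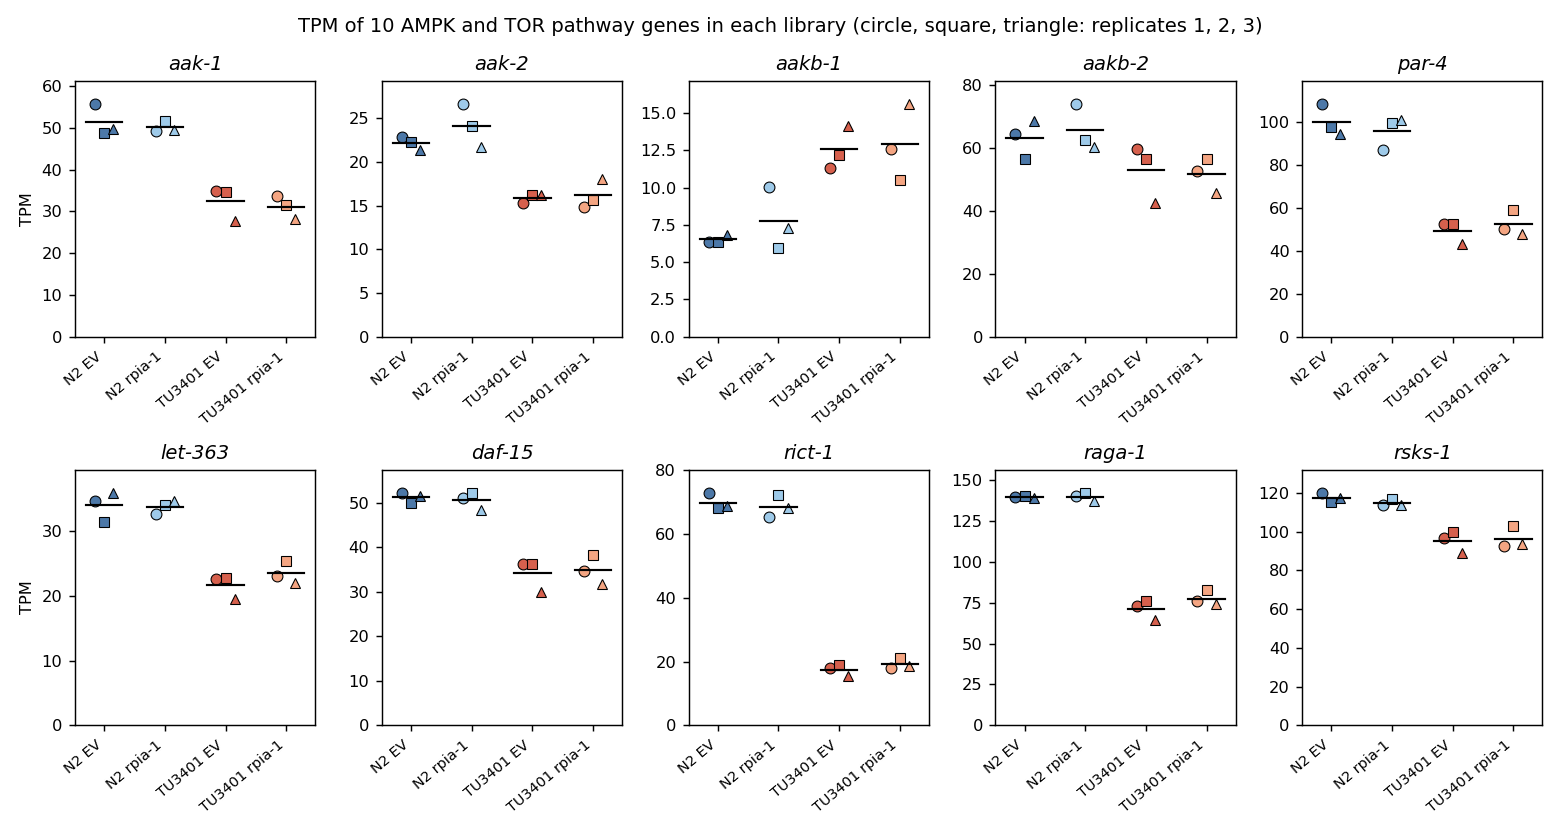
TPM (linear axis from 0) of each of the 10 genes in the 12 libraries, grouped as N2 EV, N2 *rpia-1* (RNAi) Day 0, TU3401 EV and TU3401 *rpia-1* (RNAi) WL; circles, squares and triangles are replicates 1, 2 and 3 and the line is the mean. EV and RNAi libraries overlap within each strain for all 10 genes, *rict-1* shows the widest gap between the strains (65.4 to 72.9 TPM in N2, 15.5 to 21.1 TPM in TU3401), and *aakb-1* is the gene that is higher in TU3401.

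The first question was whether *rpia-1* knockdown changed the mRNA of these genes. In neither strain did any of them pass the test. In N2, 0 of 10 genes were called by limma at an adjusted p under 0.05, beside 0.00941% of the 10626 genes tested (1 gene, *rpia-1*). At an unadjusted p under 0.05 there were 0 of the 10 genes and 176 of all genes tested. Their log2 differences in log2(TPM + 1) ran from −0.06 to 0.20 with a median of −0.01, against a median of −0.0017 for all genes. In TU3401, 0 of 10 were called, beside 0% of 13921 genes, and 0 of 10 had an unadjusted p under 0.05, against 164 of all genes tested. The differences ran from −0.06 to 0.13 with a median of 0.03, against 0.0041 for all genes. In no gene did the 3 RNAi libraries lie wholly above or below the 3 EV libraries. Over all genes tested, 1.96% lay wholly above and 3.15% wholly below in N2, and 1.36% and 2.03% in TU3401.

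On the AMPK side, *aak-2*, the catalytic subunit best known for its role in worm lifespan, stood at 22.9, 22.2 and 21.4 TPM in N2 EV and at 26.6, 24.1 and 21.7 TPM in N2 RNAi (log2 difference 0.11, 95% interval −0.12 to 0.35, adjusted p = 1.00 from limma). The RNAi libraries reached higher, but replicate 3 lay within the EV range, and the difference was 0.04 without RNAi replicate 1 and 0.18 without RNAi replicate 3. *aak-1*, the other catalytic subunit, held 55.7, 48.7 and 49.7 TPM in the EV libraries and 49.2, 51.7 and 49.5 TPM in the RNAi libraries, with the highest value in an EV library. The minor beta subunit *aakb-1* had the widest spread of the 10 genes in N2 RNAi, with 6.38, 6.35 and 6.85 TPM in N2 EV and 10.1, 5.98 and 7.31 TPM in N2 RNAi (0.20, 95% interval −0.27 to 0.67). The high value was again in N2 RNAi replicate 1, the library that stood apart, which was the highest of the 6 N2 libraries also for *aak-2* and *aakb-2*. Without it the difference of *aakb-1* was 0.02. In that library the muscle, neuron and epidermis markers were also the highest of the 6 N2 libraries (166, 477 and 59.0 TPM). The germ line, eggshell and yolk markers were the lowest there (8007, 4548 and 1933 TPM), and those of intestine and sperm were neither. The part of these tissues in the *aakb-1* value was not tested. *par-4* stood at 108, 97.5 and 94.3 TPM in N2 EV and at 87.0, 99.6 and 101 TPM in N2 RNAi, and *aakb-2*, the major beta subunit, at 64.5, 56.5 and 68.6 TPM and at 73.8, 62.6 and 60.4 TPM.

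On the TOR side the N2 libraries lay closer together. *let-363* stood at 34.6, 31.4 and 35.9 TPM in N2 EV and at 32.6, 34.1 and 34.6 TPM in N2 RNAi (log2 difference −0.01, 95% interval −0.19 to 0.18). *raga-1* was the least variable gene, with 139.8, 139.8 and 139 TPM in the EV and 139.9, 141.9 and 137 TPM in the RNAi libraries (0.0014, 95% interval −0.09 to 0.09). *rsks-1*, the S6 kinase, held 119.9, 115.2 and 117 TPM in the EV and 114, 117 and 113 TPM in the RNAi libraries (−0.03, 95% interval −0.13 to 0.07). For each of these genes the RNAi libraries overlapped the EV libraries. *daf-15* ranged from 50.1 to 52.2 TPM with EV and from 48.5 to 52.3 TPM with RNAi, and *rict-1* from 68.1 to 72.9 TPM and from 65.4 to 72.2 TPM.

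In TU3401, 8 of the 10 genes had a higher mean with RNAi than with EV and 2 a lower mean, each with overlapping libraries. With the authors' FPKM values all of those 8 turned lower, while the median of all genes moved to −0.15. The differences furthest from 0 were those of *rict-1* (log2 difference 0.13, 95% interval −0.19 to 0.45), *raga-1* (0.12, −0.12 to 0.36) and *let-363* (0.12, −0.18 to 0.41). *let-363* stood at 22.6, 22.8 and 19.5 TPM in TU3401 EV and at 23.2, 25.4 and 22.1 TPM in TU3401 RNAi. *aak-2* held 15.3, 16.2 and 16.2 TPM in the EV and 14.9, 15.7 and 18.1 TPM in the RNAi libraries (0.02, 95% interval −0.29 to 0.33). For both genes the RNAi libraries enclosed or overlapped the EV libraries.

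How large a change of whole-worm mRNA these libraries could have hidden is given by the 95% intervals. In N2 the interval, on the log2(TPM + 1) scale, lay inside a 1.5-fold change in either direction for 9 of the 10 genes, the exception being *aakb-1*, and in TU3401 for 10 of 10. Neurons made up only a share of each TU3401 sample, so these intervals do not bound a change confined to neurons. The bound is that of the TPM fit and was not worked out with FPKM. There the standard errors in TU3401 were larger, 0.22 against 0.14 for *aak-2* and 0.26 against 0.18 for *aakb-1*, so it need not hold. The knockdown effects of the strains were also compared directly, and 0 of 10 genes passed that test of the difference in limma, beside 0.00747% of 13383 genes (1 gene, *rpia-1*). At an unadjusted p under 0.05 there were 0 of the 10 genes and 156 of all genes tested. The difference between the effects, TU3401 minus N2, ran from −0.17 for *aakb-1* to 0.15 for *rict-1* (standard errors 0.26 and 0.14). Leaving out N2 *rpia-1* (RNAi) Day 0 replicate 1 raised the number of genes called in N2 from 1 to 33, and 0 of the 10 genes were among them.

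**Figure D2:**
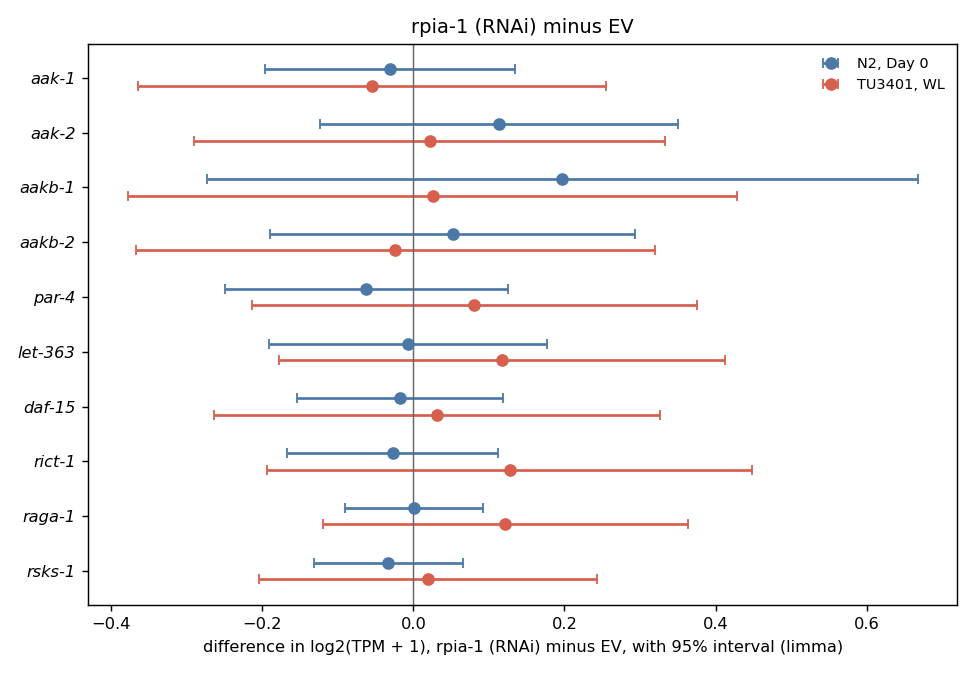
Difference in log2(TPM + 1) between *rpia-1* (RNAi) and EV libraries for each of the 10 genes, with 95% intervals from limma, in N2 (blue, 3 against 3 libraries) and TU3401 (red, 3 against 3). Every interval covers 0, and the widest is that of *aakb-1* in N2, from −0.27 to 0.67.

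The second comparison was between the strains, made separately for the EV and the RNAi libraries. These comparisons share their libraries with those above, and the EV and RNAi comparisons do not share libraries with each other. In the EV libraries 8 of the 10 genes were called lower in TU3401 and 1 higher by limma, beside 43.4% of 13348 genes called lower and 45.4% called higher. In the RNAi libraries 9 of 10 were called lower and 1 higher, beside 40.9% and 39% of 13412 genes. Most genes tested were thus called between the strains, so that a call alone does not set the 10 genes apart. Their median log2 difference was −0.60 in the EV and −0.54 in the RNAi libraries, against 0.06 and −0.02 for all genes. The libraries of the strains did not overlap for 9 of the 10 genes in the EV comparison (8 below, 1 above, beside 44.1% and 45.5% of all genes) and for 10 of 10 in the RNAi comparison (9 below, 1 above, beside 42.6% and 38.9%).

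The widest gap was that of *rict-1*, the TORC2-defining Rictor. It stood at 72.9, 68.1 and 68.8 TPM in N2 EV and at 18.0, 19.1 and 15.5 TPM in TU3401 EV. It stood at 65.4, 72.2 and 68.3 TPM in N2 RNAi and at 17.9, 21.1 and 18.6 TPM in TU3401 RNAi. The highest TU3401 library was thus far below the lowest N2 library, and the level in TU3401 was 0.251 of that in N2 with EV and 0.2801 with RNAi. The log2 differences were −1.94 (standard error 0.09, adjusted p = 1.0e-07 from limma) and −1.79 (0.11, adjusted p = 5.8e-06 from limma). In all, 2.37% of the genes tested had a difference as low or lower in the EV comparison, and 3.20% in the RNAi comparison. The gene (chromosome II from 13098239 to 13116810 of WBcel235, minus strand) shares 37 exon bases with *col-86*, a collagen gene on the same strand with a mean of 0.487 TPM.

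The other TOR genes differed less. The TOR kinase *let-363* and the Raptor *daf-15* were lower in TU3401 EV by nearly the same amount, with ratios of 0.637 and 0.667 (log2 differences −0.63 and −0.58, adjusted p = 2.1e-04 and 2.6e-04 from limma). *daf-15* stood at 52.2, 50.1 and 51.6 TPM in N2 EV and at 36.3, 36.3 and 30.0 TPM in TU3401 EV. *raga-1* stood at 73.0, 75.9 and 64.5 TPM in TU3401 EV, 0.510 of its N2 EV level (−0.96, adjusted p = 2.0e-06 from limma), and at 75.8, 82.5 and 74.0 TPM in TU3401 RNAi. The smallest difference on this side was that of *rsks-1*, with 96.4, 99.8 and 88.9 TPM in TU3401 EV (ratio 0.809, −0.30, adjusted p = 0.0023 from limma). For all 4 genes every TU3401 library was below every N2 library, with EV and with RNAi.

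On the AMPK side the subunits did not move together. The upstream kinase *par-4* stood at 52.6, 52.4 and 43.1 TPM in TU3401 EV and at 50.1, 58.9 and 47.8 TPM in TU3401 RNAi, 0.494 and 0.545 of its N2 levels (log2 differences −1.01 and −0.86, adjusted p = 7.2e-06 and 1.6e-04 from limma). The catalytic *aak-1* stood at 35.0, 34.7 and 27.8 TPM in TU3401 EV and at 33.7, 31.4 and 28.2 TPM in TU3401 RNAi (ratios 0.632 and 0.621), and *aak-2* was at 0.717 and 0.671 of its N2 level (log2 differences −0.46 and −0.55). These 3 genes were below their N2 range in every TU3401 library.

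The beta subunits went different ways. *aakb-1* was the 1 gene of the 10 that was higher in TU3401, at 11.3, 12.2 and 14.1 TPM in the EV and 12.6, 10.5 and 15.6 TPM in the RNAi libraries. Its lowest TU3401 library (10.5 TPM) stood just above its highest N2 library (10.1 TPM, N2 RNAi replicate 1). The log2 difference was 0.85 in the EV libraries (standard error 0.12, adjusted p = 1.2e-04 from limma) and 0.67 in the RNAi libraries (0.23, adjusted p = 0.028 from limma). *aakb-2* stood at 59.6, 56.3 and 42.5 TPM in TU3401 EV, overlapping with N2 EV (−0.27, adjusted p = 0.083 from limma), and at 52.5, 56.6 and 45.6 TPM in TU3401 RNAi (−0.34, adjusted p = 0.028 from limma). *aakb-2* (chromosome III from 11237143 to 11239204) and *rsks-1* (chromosome III from 11245120 to 11252281, both on the plus strand of WBcel235) lie close to each other. *aakb-2* shares 109 exon bases with the non-coding RNA gene *Y47D3A.35*, whose mean was 29.4 TPM. How reads in these shared bases were counted is not given in the sources used here.

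**Figure D3:**
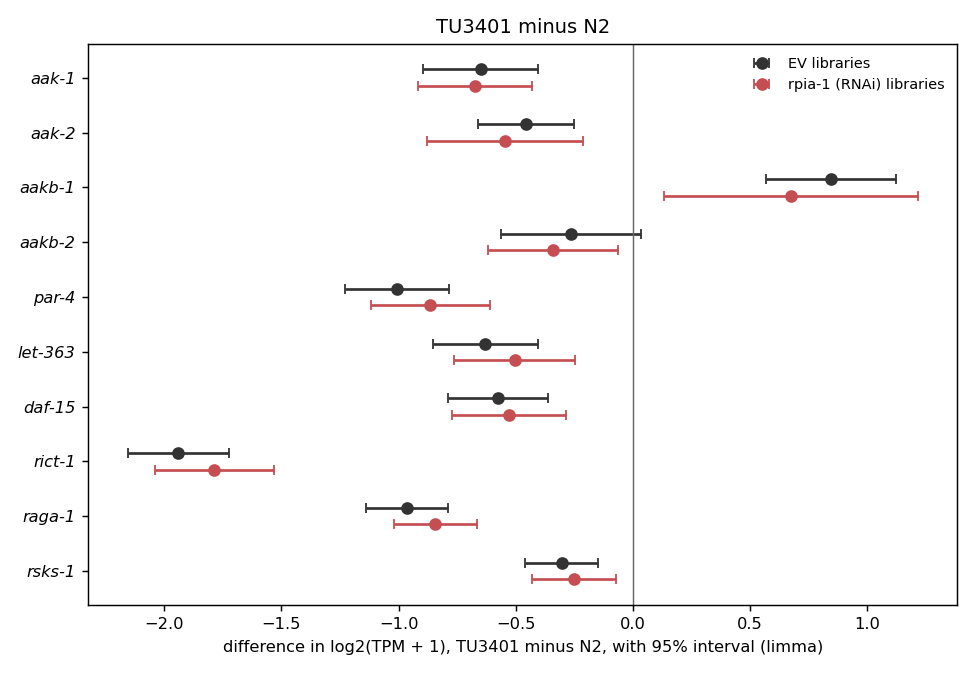
Difference in log2(TPM + 1) between TU3401 and N2 for each of the 10 genes, with 95% intervals from limma, in EV libraries (dark) and *rpia-1* (RNAi) libraries (red), 3 against 3 libraries each. *rict-1* lies furthest to the left (−1.94 and −1.79), *aakb-1* is alone on the right (0.85 and 0.67), and the interval of *aakb-2* covers 0 in the EV libraries.

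These calls were not equally firm. With the authors' FPKM values in place of TPM, only 4 of 10 genes were called in the EV comparison, *rict-1*, *par-4*, *raga-1* and *aakb-1*. In the RNAi comparison *aakb-1*, *aakb-2* and *rsks-1* each lost the call when 1 of several libraries was left out, the largest adjusted p from limma being 0.097, 0.084 and 0.078 (*aakb-1* without N2 RNAi replicate 2 or 3 or TU3401 RNAi replicate 1 or 3, *aakb-2* without N2 RNAi replicate 1 or 2 or TU3401 RNAi replicate 1 or 3, *rsks-1* without N2 RNAi replicate 2 or 3 or TU3401 RNAi replicate 1), while the call of *aakb-2* in the EV comparison appeared without TU3401 EV replicate 1 (adjusted p = 0.039 from limma).

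Ratios between members within a library do not depend on how that library was scaled, and 8 pairs of subunits or partners were compared in this way. Strain was tested by exact permutation of the N2 and TU3401 labels within the EV and within the RNAi libraries (two-sided, with 0.005 as the smallest p it can give), adjusted over the 8 ratios. Ratios of other gene pairs were not tested. Among single genes, 44.1% lay wholly below and 45.5% wholly above N2 in the EV comparison. A small p for a ratio therefore does not set these pairs apart from other pairs of genes. The ratio of *daf-15* to *let-363*, Raptor to TOR, lay between 1.40 and 1.61 in all 12 libraries, and the strains differed by 0.02 (log2, exact p = 0.54, adjusted 0.54). The ratio of *rict-1* to *let-363*, Rictor to TOR, was 2.10, 2.17 and 1.91 in N2 EV and 2.00, 2.11 and 1.97 in N2 RNAi. In TU3401 it was 0.796, 0.836 and 0.795 with EV and 0.772, 0.831 and 0.845 with RNAi. In N2 each library thus held more *rict-1* than *let-363* transcript and in TU3401 each held less (log2 difference −1.33, exact p = 0.005, adjusted 0.008).

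The partners that define the TOR complexes changed places as well. Their ratio is the quotient of both ratios to *let-363* given above, so it restates the *rict-1* difference and is not a separate result. The ratio of *daf-15* to *rict-1* lay between 0.711 and 0.784 in the 6 N2 libraries and between 1.71 and 2.02 in the 6 TU3401 libraries (log2 difference 1.35, exact p = 0.005, adjusted 0.008). Relative to *let-363*, *raga-1* was lower in TU3401 (3.23 to 3.35 against 3.86 to 4.44, exact p = 0.005, adjusted 0.008) and *rsks-1* higher (3.999 to 4.55 against 3.27 to 3.66, exact p = 0.005, adjusted 0.008).

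Of the AMPK pairs, the beta subunits differed most. The ratio of *aakb-1* to *aakb-2* was 0.0990, 0.112 and 0.0999 in N2 EV and 0.136, 0.0956 and 0.121 in N2 RNAi. It was 0.190, 0.217 and 0.333 in TU3401 EV and 0.240, 0.186 and 0.342 in TU3401 RNAi. *aakb-2* was the major beta transcript in all 12 libraries, and the share of *aakb-1* was higher in each TU3401 library than in any N2 library (2.22-fold, exact p = 0.005, adjusted 0.008). The catalytic subunits kept a ratio of *aak-1* to *aak-2* of 1.56 to 2.43 over the 12 libraries, with overlapping strains (exact p = 0.20, adjusted 0.23). The ratio of *par-4* to *aak-2* was lower in TU3401 by 0.42 on the log2 scale, with overlapping libraries (exact p = 0.015, adjusted 0.020). Within a strain, 3 RNAi against 3 EV libraries cannot go below an exact p of 0.10, so that no ratio could pass for the knockdown. In N2 the EV and RNAi libraries overlapped for the ratio of *daf-15* to *let-363* and for that of *rsks-1* to *let-363*. In TU3401 both ratios were lower in each RNAi library than in any EV library (*daf-15* to *let-363* 1.44 to 1.503 against 1.53 to 1.61, *rsks-1* to *let-363* 3.999 to 4.24 against 4.27 to 4.55, each with the smallest possible exact p of 0.10, adjusted 0.40). Both share the denominator *let-363*, whose mean was higher in TU3401 RNAi (log2 difference 0.12), so they are not independent of each other. The other 6 ratios had a larger exact p in TU3401, and in N2 the smallest of the 8 was 0.20.

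**Figure D4:**
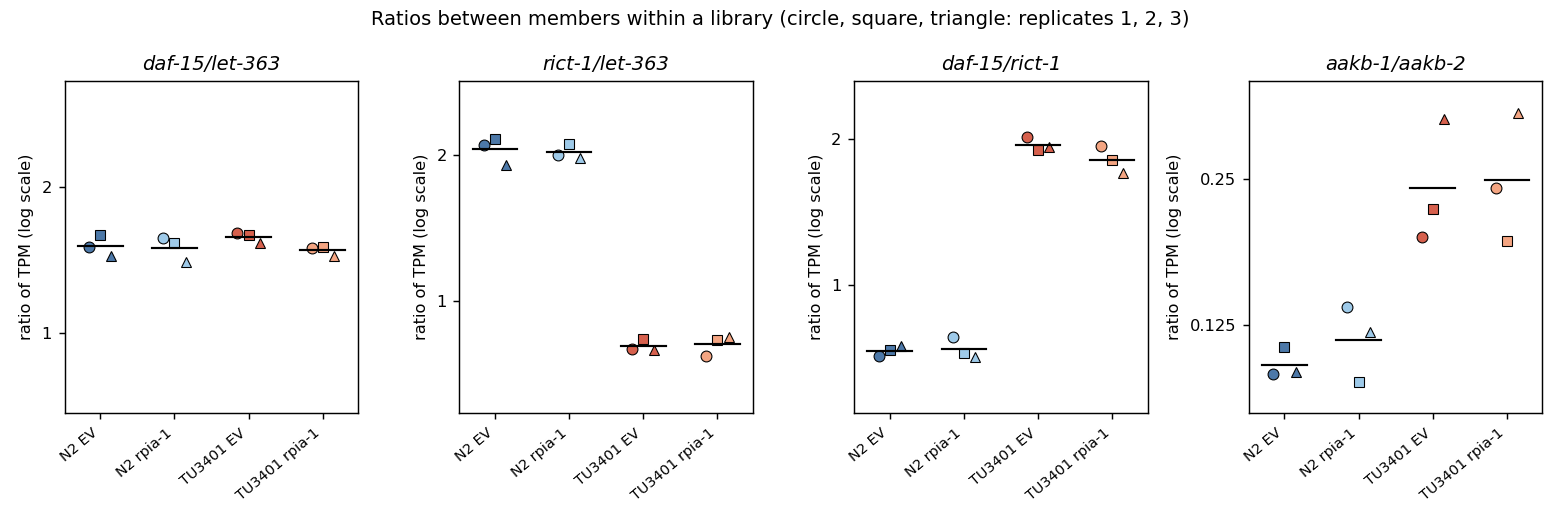
Ratio of TPM between members within each library (log axis, each panel spanning the same fold range) for Raptor to TOR (*daf-15*/*let-363*), Rictor to TOR (*rict-1*/*let-363*), Raptor to Rictor (*daf-15*/*rict-1*) and the minor to the major AMPK beta subunit (*aakb-1*/*aakb-2*). Symbols are replicates 1 to 3 as circle, square and triangle, and lines are geometric means. *daf-15*/*let-363* stays between 1.40 and 1.61 throughout, and the other ratios separate the strains without overlap.

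The 10 genes were then set among 44 other genes of the same pathways in 7 lists. None passed for the knockdown, with 0 of 39 tested called in N2 and 0 of 43 in TU3401, beside 0.00941% and 0% of all genes tested. An unadjusted p under 0.05 from limma was reached by 0 of them in N2 and 0 in TU3401. Over all genes it was reached by 176 of 10626 in N2 and 164 of 13921 in TU3401, so these counts do not set the lists apart. The median log2 difference of the listed genes was −0.03 in N2 and 0.02 in TU3401. In N2 the lowest difference was that of *sgk-1*, a kinase downstream of TORC2, with means of 4.04 TPM in EV and 3.21 TPM in RNAi libraries (−0.27). The highest was that of *ife-2*, a cap-binding translation factor, with 47.4 and 52.4 TPM (0.13). In TU3401 the highest was that of the MARK kinase *par-1*, with 27.7, 31.3 and 26.2 TPM in the EV libraries and 30.7, 46.2 and 27.8 TPM in the RNAi libraries (0.26), where replicate 2 stood far above the others. Replicate 2 held the highest *par-1* value in each other group too, at 42.7 TPM in N2 EV, 41.5 TPM in N2 RNAi and 31.3 TPM in TU3401 EV. In TU3401 the lowest difference was that of *pha-4*, a FOXA transcription factor, with means of 4.63 and 3.91 TPM (−0.22).

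Between the strains, 25 of the 43 listed genes tested were called lower and 12 higher in TU3401 EV, with a median log2 difference of −0.58, beside 43.4% and 45.4% of all genes called lower and higher. Of the 12 called higher, 4 (*aakg-3*, *ckk-1*, *unc-82* and *pha-4*) averaged under 1 TPM in N2 EV and were tested only because of their level in TU3401 EV, so that they had to be higher, and they are given as values below. The regulators of TORC1 lay on the same side as *raga-1*. Of 10, 9 were called lower, among them *ragc-1*, which encodes the RagC partner of RAGA-1 (270.5 TPM in N2 EV, 139 TPM in TU3401 EV), *lmtr-3* (248 and 124 TPM), *nprl-2* of the GATOR complex (82.8 and 41.3 TPM) and *fnip-2*, a folliculin partner (55.8 and 20.6 TPM). The 1 called higher was the sestrin *sesn-1* (9.33 and 22.6 TPM). Both other TOR complex subunits were lower, *mlst-8*, shared by the complexes, at 66.6 and 26.7 TPM and *sinh-1*, the Sin1 of TORC2, at 23.0 and 7.06 TPM. The TORC2 subunits *rict-1* and *sinh-1* were thus at 0.251 and 0.307 of their N2 EV levels, and *mlst-8* at 0.401.

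Of the 12 outputs of TOR and AGC kinases, 5 were called lower and 4 higher, beside 43.4% and 45.4% of all genes. The 4 include *pha-4* (0.773 and 4.63 TPM), which was tested only because of its level in TU3401 EV and so had to be higher. The kinase *pdk-1* (18.4 and 4.54 TPM) and its substrate *akt-1* (240.3 and 93.7 TPM) were lower and *sgk-1* (4.04 and 23.1 TPM) was higher in TU3401 EV, as was *rps-6*, the ribosomal protein that S6 kinase phosphorylates (1862 and 2563 TPM). The cap-binding *ife-3* (527 and 312 TPM) was lower, and *ife-1* (387 and 397 TPM) did not pass.

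Of the 6 partners and regulators of PAR-4 and AMPK, 5 were called lower, beside 43.4% of all genes. They were *let-92*, the catalytic subunit of the phosphatase PP2A (389 and 249.6 TPM), and the 4 genes for partners of PAR-4. Its pseudokinase partner *strd-1*, the worm STRAD, stood at 75.6, 67.9 and 70.0 TPM in N2 EV and at 23.2, 25.4 and 21.5 TPM in TU3401 EV (log2 difference −1.57, adjusted p = 2.5e-07 from limma), and *mop-25.3*, *mop-25.2* and *mop-25.1*, genes for the MO25 scaffold, differed by −1.01, −0.79 and −0.34. The sixth, *ckk-1*, a calcium-dependent kinase, was at 0.760 and 2.42 TPM. The gamma subunits of AMPK lay on both sides. *aakg-5* was lower (101 and 42.5 TPM, −1.23) and so was *aakg-1* (42.0 and 28.7 TPM, −0.54), while *aakg-2* was higher (10.5 and 14.6 TPM, 0.43) and *aakg-4* did not pass (3.46 and 2.88 TPM). *aakg-3* was at 0.0780 and 2.41 TPM.

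Targets of AMPK were called in both directions, 2 lower and 2 higher of 5, beside 43.4% and 45.4% of all genes. The lipase *atgl-1* (74.7 and 29.3 TPM) and the autophagy kinase *unc-51* (26.6 and 14.7 TPM) were lower, and the acetyl-CoA carboxylase *pod-2* (73.4 and 160 TPM) and the coactivator *crtc-1* (6.42 and 16.6 TPM) were higher. Of the AMPK-related kinases tested, *kin-29* (7.23 and 11.5 TPM) was higher, *par-1* (35.3 and 28.4 TPM) did not pass, and *unc-82*, known from muscle, was at 0.817 and 12.9 TPM. In the RNAi libraries 25 of 43 were called lower and 9 higher (4 of them under 1 TPM in N2 RNAi), with a median of −0.58, beside 40.9% and 39% of all genes.

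**Figure D5:**
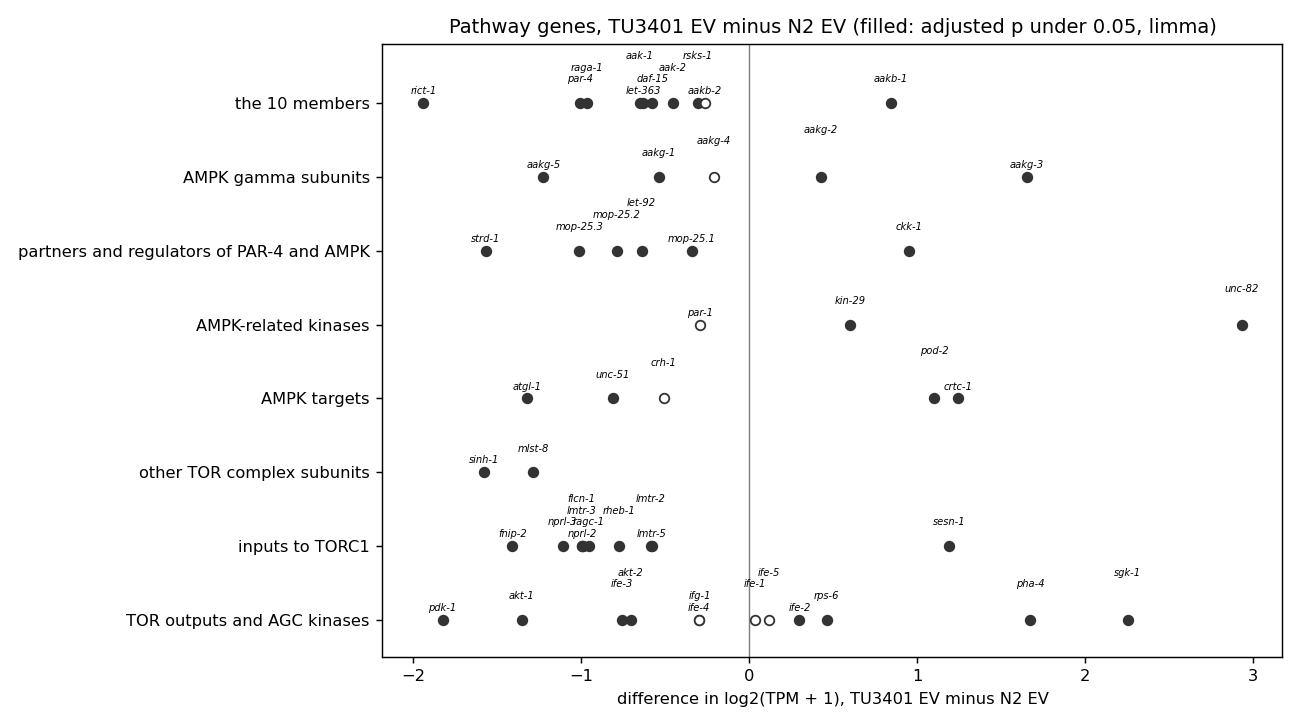
Difference in log2(TPM + 1), TU3401 EV minus N2 EV (3 against 3 libraries), for the 10 members and the 43 tested genes of 7 pathway lists, one row per list; filled points passed an adjusted p under 0.05 from limma and open points did not, and labels name the genes. Of the TORC1 inputs 9 of 10 lie to the left of 0, and the AMPK gamma subunits and the TOR outputs lie on both sides. The points of *aakg-3*, *ckk-1*, *unc-82* and *pha-4*, under 1 TPM in N2 EV, had to lie to the right, since these genes were tested only because of their level in TU3401 EV.

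Among the 10 genes, the profiles over the 12 libraries were most alike for *let-363* and *daf-15*, with a root mean square difference of 0.06 in log2(TPM + 1) after each profile was centred on its mean, followed by *par-4* and *raga-1* with 0.08. The least alike were *aakb-1* and *rict-1* with 1.34. Of the 9143 other genes averaging 5 TPM or more, the 3 closest to *let-363* were *rbg-2* (0.03), *rpn-2*, a proteasome subunit (0.04), and *rsp-7*, a splicing factor (0.04). The 3 closest to *aak-2* were *dhhc-14*, of the palmitoyltransferase family (0.05), *pccb-1*, a subunit of propionyl-CoA carboxylase (0.06), and *nra-4* (0.06). *rbg-2* stood at 30.4 and 30.1 TPM in the N2 and at 19.3 and 21.1 TPM in the TU3401 groups (EV and RNAi means), close in shape and level to *let-363*. These likenesses describe the same 12 libraries, in which the strains differ most.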

How the data were processed

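RNA-seq of 12 whole-worm libraries was deposited as TPM and FPKM values per gene, and both were made by the authors. The submitters' processing notes name HISAT2 2.2.1, Trimmomatic 0.36, featureCounts 1.6.2, MultiQC 1.12 and FastQC 0.11.9. The genome build and the strand setting are not given in the sources used here. The deposited TPM, taken as a linear signal, are the authors' FPKM times 1 factor per library and sum to between 1025900 and 1036140 per library, an excess that the sources do not explain. The library kit keeps strand. No counts were used, so the depth in reads is unknown and precision rests on the replicates. Names and coordinates came from Ensembl release 115 (WBcel235), which lists 46817 of the 46904 genes.

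Each comparison was fitted by limma 3.58.1 (R 4.3.3) with a mean-variance trend on log2(TPM + 1), a scale that understates changes of low genes, over the groups compared (all 4 for the difference between knockdown effects), for genes that averaged 1 TPM or more. An adjusted p (Benjamini-Hochberg over all genes tested) under 0.05 was a call. Ratios were tested by exact permutation in Python 3.11.15. The methods were tested on simulated data. Named are all 10 members, of each of 7 pathway lists up to 4 genes with the smallest p per comparison, and the 3 genes most like *aak-2* and *let-363*. *aakg-4*, *mop-25.1*, *ckk-1*, *sesn-1*, *rps-6* and *ife-1* were named after their values were seen. *fnip-2* was matched by its ID, and 8 marker lists describe tissues. Alternatives were FPKM, pseudocounts of 0.1 and 5, filters at 0 and 5 TPM, median-of-ratios scaling, a replicate block and leaving out each library. The members and lists were chosen with earlier results of these data known. No sequences were used. Figures were drawn with matplotlib 3.10.9.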

Additional observations from a re-analysis of the deposited data

How the results depend on the processing

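The libraries gave no read counts, so precision rested on 3 replicates a group, and the alternatives named in the processing account were each run alone. None changed the direction of a member between the strains (0 of 280 values reversed), while 51 of 470 member values of the knockdown comparisons and of their difference changed sign, the smallest adjusted p from limma among these being 0.88. The cause of these shifts was not tested.

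FPKM in place of TPM moved the median of all genes to −0.13 for the N2 and −0.15 for the TU3401 knockdown. In N2 it turned *aak-2* to −0.012, *aakb-2* to −0.075 and *raga-1* to −0.13. In TU3401 it turned *aak-2* to −0.13, *aakb-1* to −0.13, *par-4* to −0.083, *let-363* to −0.042, *daf-15* to −0.13, *rict-1* to −0.031, *rsks-1* to −0.15 and *raga-1* to −0.044. Taken relative to the median of all genes, these TU3401 values ran from −0.00077 for *rsks-1* to 0.11 for *rict-1*. The library factors between TPM and FPKM were 1.39 for N2 EV replicate 2 and 1.21 for TU3401 EV replicate 3, against 1.70 to 1.93 for the others. In TU3401 EV against N2 EV, FPKM left 4 of 10 members called, and *aak-1* (−0.48), *aak-2* (−0.29), *let-363* (−0.46), *daf-15* (−0.41) and *rsks-1* (−0.14) no longer passed. FPKM gave 0 genes called for the difference between the knockdown effects and left 1 of the 3 genes most like *let-363*.

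Median-of-ratios scaling turned *raga-1* in N2 to −0.021 and *aakb-2* in TU3401 to 0.017. Without a filter on low values, the genes called were 2 for the N2 knockdown, 6 for the TU3401 knockdown and 10 for the difference between them, with 0 members in each. Between the strains in the RNAi libraries, 8 of 10 members passed with FPKM, without a filter or with median-of-ratios scaling.

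With 1 library left out, the genes called ranged from 1 to 33 in N2 (33 without N2 RNAi replicate 1), from 0 to 1 in TU3401 and from 1 to 2 for the difference. Member differences that changed sign ranged in N2 from −0.067 to 0.027 for *aak-1*, −0.035 to 0.11 for *aakb-2*, −0.10 to 0.0055 for *par-4*, −0.061 to 0.032 for *let-363*, −0.040 to 0.013 for *daf-15*, −0.064 to 0.0064 for *rict-1* and −0.011 to 0.015 for *raga-1*. In TU3401 they ranged from −0.16 to 0.011 for *aak-1*, −0.055 to 0.078 for *aak-2*, −0.11 to 0.15 for *aakb-1*, −0.17 to 0.070 for *aakb-2*, −0.012 to 0.14 for *par-4*, −0.058 to 0.095 for *daf-15* and −0.028 to 0.055 for *rsks-1*. Without a change of sign, *aak-2* in N2 ranged from 0.04 to 0.18, *aakb-1* in N2 from 0.02 to 0.35, and in TU3401 *rict-1* ranged from 0.05 to 0.19, *raga-1* from 0.05 to 0.17 and *let-363* from 0.05 to 0.16. The differences between the knockdown effects ranged from −0.13 to 0.043 for *aak-1*, −0.32 to 0.0078 for *aakb-1*, −0.22 to 0.018 for *aakb-2* and −0.040 to 0.11 for *daf-15*, and the strain difference of the ratio of *daf-15* to *let-363* from −0.0020 to 0.042.

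Nothing in the labels says that a replicate number marks a shared batch. The sample descriptions do carry the same number suffixes, with some numbers skipped, in the EV and the RNAi group of a strain. What the suffixes mark is not stated, and matched handling is possible. The numbers were not taken as pairs because not every same-numbered pair correlated above 0.1. The correlations ran from −0.40 to 0.03 for the N2 knockdown and from 0.06 to 0.46 for the TU3401 knockdown, where different numbers gave −0.51 to 0.24 and replicate 1 did not correlate best with its own number, so that shared handling in TU3401 was not settled. With a replicate block 0 members were called in N2, 0 in TU3401, 9 between the EV and 10 between the RNAi groups, and 0 for the difference, and the genes called were 1, 0, 11844, 10796 and 1.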
